A study of Mus musculus with 12 samples.

Results

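The genes described here are the R7 regulators of G protein signalling and the partners they work with: Rgs6, Rgs7, Rgs9 and Rgs11, the beta subunit gene Gnb5 and the membrane anchor gene Rgs7bp. They were found by gene symbol and make up 6 of the 51912 genes listed in the deposited count tables. Rgs6 was chosen by its read counts, which are much lower in the mutants of this study, so its difference between the genotypes is given as a description with no test. The other 5 genes were taken as its family and partners. Tissue was micro-dissected cortex from mice at embryonic day 15.5. There were 6 mutants, which carry a conditional mutation of Arid1a with Cre recombinase driven by Emx1, and 6 controls, of which the labels name no alleles. Emx1-Cre is active in progenitors of the dorsal telencephalon and in their offspring, and blood vessels, microglia and interneurons that migrate in from the ventral telencephalon lie outside that lineage. Mutants 1 and 2 and controls 1 to 4 came from litter 1, and mutants 3 to 6 and controls 5 and 6 came from litter 2. By sex there were 5 female mutants and 1 male mutant, against 2 female controls and 4 male controls.

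RGS proteins speed up the hydrolysis of GTP by G protein alpha subunits and so end a signal that began at a G protein-coupled receptor. R7 members act on the Gi/o class of alpha subunits, which lower cyclic AMP and, through their beta-gamma partners, open GIRK potassium channels. Each R7 protein is held in a complex with Gnb5, an unusual beta subunit without which R7 proteins are degraded, and Rgs7bp is a lipid-modified protein that tethers these complexes to the plasma membrane. In adult tissue Rgs9 is known from striatal neurons and photoreceptors, Rgs7 and Rgs11 from retinal bipolar cells, and Rgs6 from the heart, where it limits muscarinic slowing of the beat, and from several classes of brain neurons.

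Rgs6, which was chosen for its fall, and Rgs7bp were the members in which every mutant lay below every control, and their promoters are printed for that reason. Of all tested genes 0.927% had every mutant below every control. Each stretch runs from 250 bases before to 50 bases after a RefSeq start on build GRCm38.p6, the assembly behind mm10, read 5′ to 3′ on the strand of the gene. Capitals mark each CG pair. The Rgs6 stretch is chr12:82617249-82617548 on the plus strand, and the Rgs7bp stretch is chr13:105054881-105055180 on the minus strand.
Rgs6: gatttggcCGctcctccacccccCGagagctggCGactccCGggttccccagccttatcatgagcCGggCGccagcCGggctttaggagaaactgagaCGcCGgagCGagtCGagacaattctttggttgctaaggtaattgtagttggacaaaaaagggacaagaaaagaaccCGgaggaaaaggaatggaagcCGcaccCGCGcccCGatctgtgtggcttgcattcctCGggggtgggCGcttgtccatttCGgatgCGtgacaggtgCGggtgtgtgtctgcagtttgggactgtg
Rgs7bp: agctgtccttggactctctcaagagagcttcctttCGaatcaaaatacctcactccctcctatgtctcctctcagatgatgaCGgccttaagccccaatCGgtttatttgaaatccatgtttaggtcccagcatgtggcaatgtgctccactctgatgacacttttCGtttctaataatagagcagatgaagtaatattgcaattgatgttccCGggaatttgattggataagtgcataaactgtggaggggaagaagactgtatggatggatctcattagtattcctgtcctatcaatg
The Rgs6 window held 21 CG pairs and the Rgs7bp window 5. Of 32851 promoter windows of the same length in the table, 75.2% held fewer CG pairs than Rgs6 and 38.0% held fewer than Rgs7bp. The Rgs7 window held 34 CG pairs, that of Rgs9 19 and that of Gnb5 5, and Rgs11 was not among the windows used here. The letters TATAAA were found on one strand or the other in the windows of Rgs9 and Gnb5 and not in those of Rgs6, Rgs7 and Rgs7bp, against 13.6% of all windows. Rgs6 and Rgs7bp thus differed in CG content, and neither window held TATAAA. The RefSeq start used for Rgs6 lies inside the GENCODE gene, downstream of its first annotated base.

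Levels are normalised read counts, or CPM, read counts scaled to a fixed total after library sizes were scaled by TMM. Libraries held 643197 to 3525121 gene counts in mutants, against 1476478 to 2815042 in controls. Nothing in the labels says whether reads in introns were counted. Of the 40 genes with the most counts 35 spanned at least 250 kb, and the part of unspliced RNA in these levels was not tested. Arid1a stood at 396 to 525 CPM in the mutants, against 464 to 575 CPM in the controls, with a log2 fold change of -0.30 (SE 0.0958, edgeR adjusted p = 0.277). A gene total does not show the loss of a single floxed exon. As a check of the labelled tissue, Tbr1, a transcription factor of early-born cortical neurons, stood at 159 to 295 CPM in the mutants, against 149.6 to 326 CPM in the controls. Fold changes are mutant minus control on the log2 scale, from a fit to all 10678 genes that passed the count filter, with terms for litter and sex. Of these genes 0.159% were called lower and 0.0562% higher at an adjusted p under 0.05, while 5.07% were lower and 3.71% higher at an unadjusted p under 0.05.

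Rgs6 (ENSMUSG00000021219.16, chromosome 12, 82588292 to 83162056 on the plus strand) spans 574 kb, the longest of the members. In litter 1 it stood at 158 and 204 CPM in the mutants, against 553, 557, 421 and 807 CPM in the controls. In litter 2 it stood at 195, 261, 194 and 283 CPM in the mutants, against 546 and 662 CPM in the controls. The highest mutant thus lay below the lowest control, and this gap was present inside each litter. The group means were 216 ± 46.5 CPM in the mutants, against 591 ± 131 CPM in the controls (SD over libraries, n = 6 each), a ratio of 0.365, and the fitted log2 fold change was -1.48 (SE 0.193). These values rested on 104 to 705 reads per mutant and 788 to 2162 reads per control. In bulk tissue, fewer cells that contain Rgs6 and less Rgs6 RNA per cell cannot be told apart.

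The Rgs6 fold change was -1.61 in litter 1 and -1.38 in litter 2, where litter 1 has no male mutant and, with a sex term, sets its mutants against control 1 alone. The interaction of litter and genotype for Rgs6 was 0.27 (SE 0.390, edgeR adjusted p = 0.921) and did not pass. Across all genes that interaction gave 0 calls by edgeR and 0 by limma-voom, with 776 genes (7.27%) at an unadjusted p under 0.05.

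Rgs7bp (ENSMUSG00000021719.8, chromosome 13, 104945904 to 105054930 on the minus strand), the membrane anchor, had the next largest fitted fold change among the members that passed the count filter. In litter 1 it stood at 50.1 and 52.1 CPM in the mutants, against 103, 69.9, 81.4 and 89.6 CPM in the controls. In litter 2 it stood at 53.7, 50.1, 43.2 and 55.8 CPM in the mutants, against 61.3 and 66.7 CPM in the controls. All mutants were below all controls, in a narrow band of their own, while the controls of litter 2 were lower than those of litter 1. The means were 50.8 ± 4.31 CPM in the mutants, against 78.6 ± 15.7 CPM in the controls (SD over libraries, n = 6 each). The log2 fold change of Rgs7bp was -0.59 (SE 0.142), and it did not pass the test (edgeR unadjusted p = 5.90e-04, adjusted p = 0.100). Without the litter and sex terms the adjusted p of Rgs7bp was 0.0206, and with no count filter it was 0.00297. The fit with no count filter called 261 genes in all, against 23 in the main fit. The fold change of Rgs7bp was -0.36 in litter 2 alone and did not pass there. In litter 1 alone it was -1.01, where the sex term sets the mutants against control 1 alone, the highest control. The litter 1 means were 51.1 CPM in the mutants, against 85.9 CPM in all its controls. Of all tested genes 0.927% had all 6 mutants below all 6 controls, 0.337% had all mutants above, and 1.26% did not overlap in one direction or the other.

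**Figure D1:**
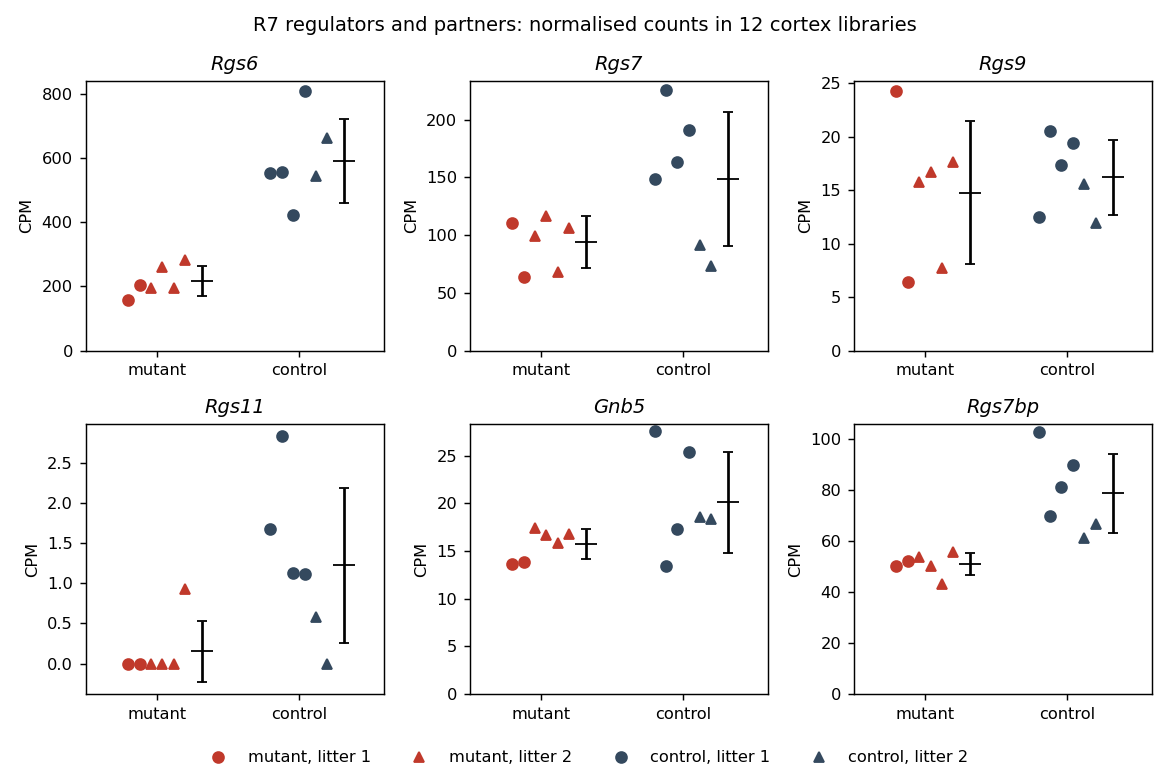
Normalised counts (CPM, vertical axis) of the 6 members in each library, mutants left and controls right; circles are litter 1, triangles litter 2, and the bar beside each group is its mean with SD (n = 6 per group). Mutants of Rgs6 lie between 158 and 283 CPM and those of Rgs7bp between 43.2 and 55.8 CPM, below every control, while the groups of Rgs7, Rgs9, Rgs11 and Gnb5 overlap.

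Gnb5 (ENSMUSG00000032192.9, chromosome 9, 75306288 to 75345876 on the plus strand), the obligate beta subunit, had a lowest, median and highest level of 13.7, 16.3 and 17.4 CPM in the mutants, against 13.4, 18.5 and 27.6 CPM in the controls. The groups overlapped, with control 2 the lowest library and controls 1 and 4 well above the rest. Its log2 fold change of -0.43 (SE 0.235, 95% interval -0.89 to 0.03) did not pass (edgeR adjusted p = 0.652). It was -0.21 without control 1, -0.69 without control 6, -1.01 in litter 1 alone, -0.13 in litter 2 alone and -0.24 with the striatal score in the model. The litter 1 value, with a sex term, sets the mutants against control 1 alone, the highest control at 27.6 CPM. The means of Gnb5 were 15.7 ± 1.59 CPM in the mutants, against 20.1 ± 5.32 CPM in the controls (SD over libraries, n = 6 each). Mutants 1 to 6 held 9, 13, 63, 13, 37 and 18 reads. Controls 1 to 6 held 66, 19, 46, 68, 32 and 40 reads. The spreads were not tested against each other, and counting error at this depth was not separated from them.

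Rgs7 (ENSMUSG00000026527.13, chromosome 1, 175059087 to 175492500 on the minus strand), the closest R7 relative of Rgs6, was high in the controls of litter 1. In litter 1 it stood at 111 and 63.9 CPM in the mutants, against 148, 225, 163 and 191 CPM in the controls. In litter 2 it stood at 99.7, 117, 68.5 and 106 CPM in the mutants, against 91.4 and 73.6 CPM in the controls. The litter 1 controls were thus above all other libraries, and in litter 2 the 2 genotypes overlapped. With litter and sex in the model the genotype difference of Rgs7 was -0.13 (SE 0.269, 95% interval -0.66 to 0.40, edgeR adjusted p = 0.969), and it took the opposite sign in litter 2 alone (0.33, adjusted p = 0.614), without control 1 (0.01) and without mutant 2 (0.11). The interaction of litter and genotype for Rgs7 was 1.134 (SE 0.317, edgeR adjusted p = 0.504), and among 15 alternatives it passed only with no count filter (adjusted p = 1.45e-04). With no count filter 75 genes were called for this interaction, against 0 in the main fit. The difference of litter 2 against litter 1, looked at after the values were seen, was -0.55 (SE 0.241, edgeR adjusted p = 0.316), and it passed without mutant 2 (-0.80, adjusted p = 0.0432). Of all tested genes 0.618% were called lower and 0.693% higher in litter 2.

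Rgs9 (ENSMUSG00000020599.13, chromosome 11, 109225355 to 109298129 on the minus strand), the striatal and photoreceptor member, had a lowest, median and highest level of 6.39, 16.2 and 24.3 CPM in the mutants, against 12.0, 16.5 and 20.5 CPM in the controls. Both the highest and the lowest library were mutants of litter 1, and the controls lay between them. These 2 levels rested on 16 reads in mutant 1 and 6 reads in mutant 2, and counting error was not separated from their difference. Its log2 fold change was 0.14 (SE 0.312, 95% interval -0.47 to 0.75, edgeR adjusted p = 0.973). The sign turned without the sex term (-0.11) and without mutant 1 (-0.07).

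Rgs11 (ENSMUSG00000024186.15, chromosome 17, 26202951 to 26211324 on the plus strand), a retinal member in adults, was near the limit of detection and did not pass the count filter. Mutants 1 to 6 held 0, 0, 0, 0, 0 and 1 reads, and controls 1 to 6 held 4, 4, 3, 3, 1 and 0 reads. The pooled read rate in mutants was 0.0965 times that in controls (1 of 9293940 against 15 of 13446123 gene counts, exact binomial 95% interval 0.00229 to 0.627, counting error only). The CPM of Rgs11 differed between mutants and controls in a two-sided exact permutation test (difference of means -1.07 CPM, p = 0.0281, 6 against 6 libraries). In litter 1 the mean was 0 CPM in the mutants, against 1.69 CPM in the controls. In litter 2 the means were 0.232 CPM in the mutants, against 0.289 CPM in the controls, from 1 read in each genotype. When genotypes were exchanged only within litters the exact permutation p was 0.0400 over 225 arrangements. A count of 0 allows up to 3 reads, which is 4.56 CPM in mutant 1 and 0.831 CPM in mutant 3, so in the shallow mutants the level of most controls would not have been detectable in a single library. Rgs11 overlaps Arhgdig on the opposite strand, a gene with 25 reads in all, and without stated strand use reads from the overlap cannot be told apart.

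Per kb of annotated exon sequence, Rgs6 had the highest mean of the R7 genes in both genotypes, at 21.5 CPM per kb in mutants, against 58.96 CPM per kb in controls. Rgs7 followed with 15.7 CPM per kb in mutants, against 24.7 CPM per kb in controls, and in mutant 1 it stood above Rgs6. Rgs7bp had 7.19 CPM per kb in mutants, against 11.1 CPM per kb in controls, and Gnb5 had 5.04 CPM per kb in mutants, against 6.45 CPM per kb in controls. Rgs9 and Rgs11 lay lower, at 2.31 and 0.0368 CPM per exon kb in mutants, against 2.54 and 0.290 CPM per exon kb in controls. This order depends on the length used. Per kb of gene span, in controls Rgs6 (1.03 CPM per kb) was followed by Rgs7bp (0.721 CPM per kb), Gnb5 (0.508 CPM per kb) and only then Rgs7 (0.344 CPM per kb), and in mutants Rgs7bp (0.466 CPM per kb) and Gnb5 (0.397 CPM per kb) stood above Rgs6 (0.376 CPM per kb).

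Taken as a pool, the 4 R7 genes summed to 39.5 ± 7.42 CPM per exon kb in mutants, against 86.5 ± 16.9 CPM per exon kb in controls (SD over libraries, n = 6 each). Rgs6 made up 54.7% ± 7.97 of that sum in mutants, against 68.4% ± 9.73 in controls (SD over libraries, n = 6 each). The shares overlapped, at 41.5 to 63.7% in mutants, against 57.3 to 82.4% in controls, and the 2 highest shares were those of controls 5 and 6, the litter 2 controls with little Rgs7. Because Rgs6 dominates the sum and was chosen for its fall, these values carry no test.

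Of the 4 tested members other than Rgs6, 0 were called by edgeR, DESeq2 or limma-voom, and 1 (Rgs7bp) was lower at an unadjusted p under 0.05. Over all tested genes 5.07% were lower at that threshold. Rgs6 and Rgs7 both span more than 400 kb. The 342 tested genes of at least 400 kb had a median log2 fold change of 0.01, with 0 called higher and 2 (0.585%) called lower, 1 of them Rgs6 itself. The 1759 genes of 100 to 400 kb, among them Rgs7bp, had a median of -0.02, with 2 called higher and 10 (0.569%) called lower, beside 0.159% of all tested genes. Removing the trend of counts on gene span left Rgs6 at -1.49 and Rgs7bp at -0.57.

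The rest of the G protein cycle was read from lists of 104 genes, of which 60 passed the count filter. By edgeR 0 of the 60 were called, against 0.215% of all tested genes. An unadjusted p under 0.05 was found for 11 of the 60, 7 of them lower. Over all tested genes 5.07% were lower and 3.71% higher at that threshold. DESeq2 (adjusted p = 0.0264) and limma-voom (adjusted p = 0.0324) each called 1, Lpar1, a receptor for lysophosphatidic acid that is also on the subplate marker list. Its edgeR log2 fold change, given here after its values were seen, was -1.53 (SE 0.338, adjusted p = 0.115), and it passed in 6 of 28 alternatives. The median log2 fold change of the 60 was -0.02, beside -0.00088 over all tested genes, and 51.7% were negative, beside 50.1% of all tested genes.

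Of the other R7 anchors, Gpr158, an orphan receptor that recruits Rgs7 complexes to the membrane, had 21.4, 29.1 and 41.0 CPM in mutants (lowest, median and highest) and 12.1, 31.1 and 40.3 CPM in controls. Its fold change was 0.54 (SE 0.251, edgeR adjusted p = 0.552), the opposite sign to Rgs7bp, and the groups overlapped widely. Rgs9bp, the photoreceptor anchor of Rgs9, had 22 reads over all libraries, and Gpr179, a retinal anchor, had 6. Neither could be tested across genes.

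None of the alpha subunits that R7 proteins act on passed the test. Gnao1, the main alpha subunit of neurons, stood at 758 ± 45.1 CPM in the mutants, against 797 ± 66.6 CPM in the controls (SD over libraries, n = 6 each), with a log2 fold change of -0.10 (SE 0.0945, 95% interval -0.29 to 0.08, edgeR adjusted p = 0.839). Gnai1 had -0.27 (SE 0.192, edgeR adjusted p = 0.778) and Gnai2 had 0.11 (SE 0.130, edgeR adjusted p = 0.900). All 5 tested Gi/o alpha genes lay between -0.27 and 0.30. Of the conventional beta subunits, which unlike Gnb5 pair with gamma subunits, the 2 tested genes had -0.21 and 0.04, and the 5 tested gamma genes ran from -0.43 to 0.42.

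Among effectors and receptors of the same route, Kcnj3, a GIRK channel subunit, stood at 128, 159 and 194 CPM in mutants (lowest, median and highest) and at 180, 204 and 268 CPM in controls. The highest mutants overlapped the lowest controls, and the fold change of -0.44 (SE 0.147) did not pass (edgeR adjusted p = 0.311, and 0.00617 with no count filter). Kcnj6, another GIRK subunit, had 0.82 (SE 0.505, edgeR adjusted p = 0.719), and Kcnj9 had 42 reads in all. The GABA-B receptor genes Gabbr1 and Gabbr2 had -0.16 (SE 0.104) and -0.22 (SE 0.224), with edgeR adjusted p of 0.737 and 0.863. Cnr1, the cannabinoid receptor of axon terminals, was the 1 pathway gene of 60 tested whose groups did not overlap, beside 1.26% of all tested genes. Cnr1 stood at 63.2, 112 and 130 CPM in mutants (lowest, median and highest) and at 148, 177 and 238 CPM in controls. Its log2 fold change of -0.68 (SE 0.197) did not pass (edgeR adjusted p = 0.265), and the adjusted p was 0.0243 without the litter and sex terms and 3.18e-06 with no count filter. The fit with no count filter called 261 genes in all, against 23 in the main fit.

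Other RGS subfamilies gave no call either. The 6 tested R4 genes ran from -0.84 to 1.23 with a median of 0.30, the 3 tested RZ genes from -0.31 to 0.63, and the 1 tested R12 gene, Rgs12, had 0.04. The 7 tested adenylyl cyclases ran from -0.44 to 0.47, and the 17 tested Gi/o-coupled receptors from -1.53 to 1.62 with a median of -0.16.

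**Figure D2:**
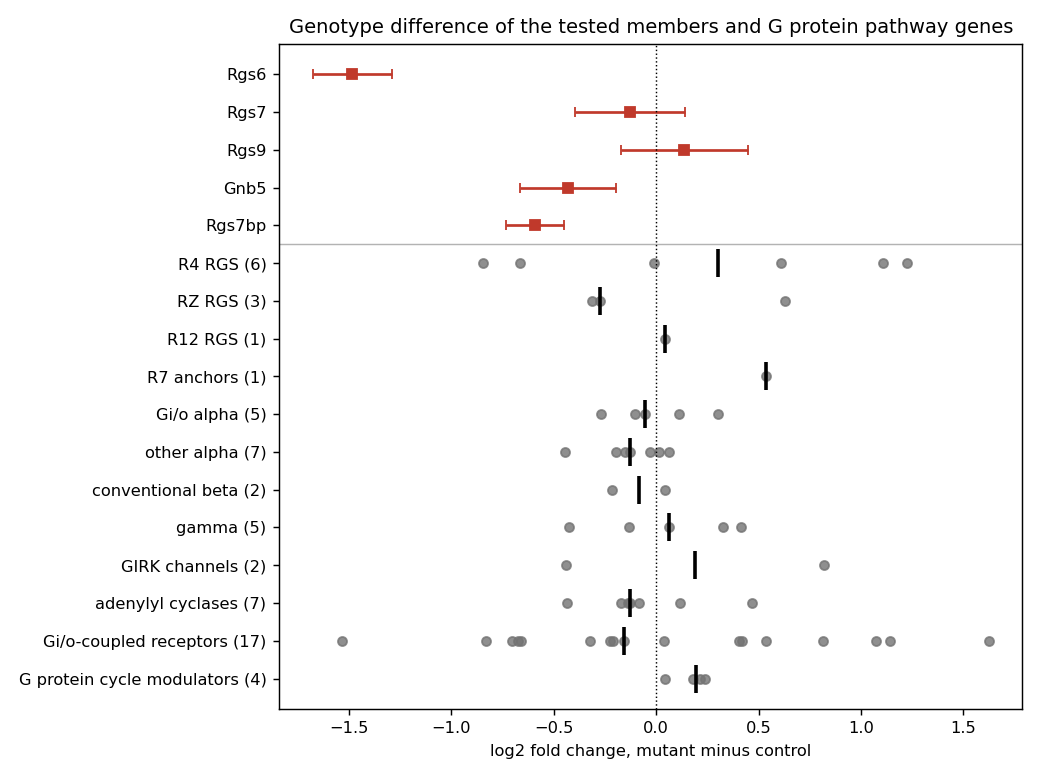
Log2 fold changes (horizontal axis, mutant minus control) of the tested members, as squares with bars of 1 SE, and of tested genes in each pathway list, as grey points with the list median as a black bar and the number of tested genes in brackets. Rgs6 at -1.48 lies below all members and below all but 1 of the 60 pathway genes, and the list medians lie between -0.27 and 0.54.

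The neighbourhood of Rgs6 on chromosome 12 was examined for genes that differed with it. Within 1 Mb of the gene 15 of 56 annotated genes passed the count filter, and edgeR called 0 of them. An unadjusted p under 0.05 was found for 2, Dpf3 and Pcnx, both lower, beside 5.07% lower over all tested genes. DESeq2 called both and limma-voom called neither. Over 28 alternatives Dpf3 passed in 6 and Pcnx in 7. Dpf3, which encodes a subunit of neural BAF complexes, lies 51.7 kb beyond Rgs6 (83213745 to 83487716, minus strand). It had 37.2, 52.8 and 68.5 CPM in mutants (lowest, median and highest) and 44.5, 78.8 and 117 CPM in controls, with a log2 fold change of -0.96 (SE 0.203, edgeR adjusted p = 0.0740, 0.0188 by DESeq2). Dpf3 levels overlapped in controls 2 and 3, at 44.5 and 47.1 CPM, while the other controls stood at 74.3 to 117 CPM, above every mutant. Pcnx (81860023 to 82000924, plus strand), 587 kb before Rgs6, had 255, 273 and 293 CPM in the mutants, against 341, 386 and 472 CPM in the controls with no overlap, and a log2 fold change of -0.50 (SE 0.105, edgeR adjusted p = 0.0525, 0.00815 by DESeq2). Between Pcnx and Rgs6 lies Sipa1l1, at 279 ± 29.0 CPM in the mutants, against 289 ± 35.9 CPM in the controls (SD over libraries, n = 6 each), with a log2 fold change of -0.02. The 12 other tested neighbours ran from -0.37 to 0.20.

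**Figure D3:**
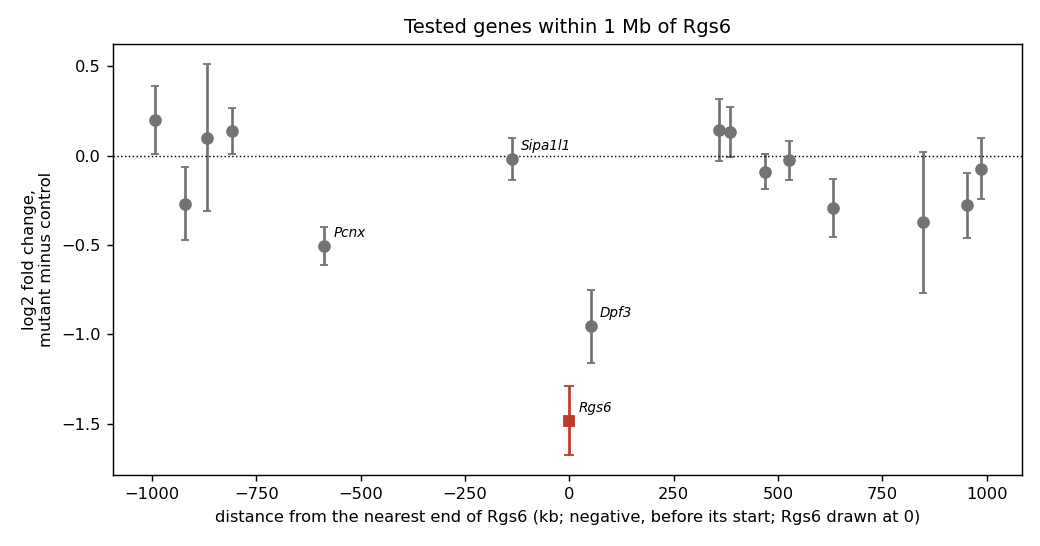
Log2 fold change (vertical axis, mutant minus control, bars 1 SE) of the 15 tested genes within 1 Mb of Rgs6, placed by their distance in kb from the nearest end of Rgs6, which is drawn as a red square at 0. Dpf3 at -0.96 and Pcnx at -0.50 are the lowest neighbours, with Sipa1l1 at -0.02 between Pcnx and Rgs6.

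The genes whose levels over the 12 libraries were most like those of Rgs6 were ranked by Pearson r of log2 CPM among 9146 genes averaging 10 CPM or more. The highest were Spock1, an extracellular proteoglycan (r = 0.96), Zeb2, a zinc finger transcription factor (r = 0.93), Hs3st4, a heparan sulfate sulfotransferase of layer 6 (r = 0.93), Akap12, a kinase scaffold (r = 0.92), and Prickle1, a planar polarity protein (r = 0.92). Spock1 stood at 199 ± 39.7 CPM in the mutants, against 493 ± 143 CPM in the controls, and Zeb2 at 1218 ± 54.5 CPM in the mutants, against 1652 ± 231 CPM in the controls (SD over libraries, n = 6 each). The lowest r were those of Sfi1 (-0.90), Bmp2k (-0.89), Zfp316 (-0.88), Ciapin1 (-0.88) and Sertm1 (-0.88). Among members Rgs7bp was nearest to Rgs6 (r = 0.81), then Gnb5 (0.62), Rgs7 (0.51) and Rgs9 (0.22). These r values include the genotype difference by which Rgs6 was chosen. The litter, sex and genotype terms were then removed. In these residuals r to Rgs6 was 0.79 for Spock1, 0.83 for Zeb2, 0.73 for Hs3st4, 0.57 for Akap12 and 0.63 for Prickle1. Among members it was 0.48 for Rgs7bp, 0.46 for Gnb5, 0.24 for Rgs7 and -0.0025 for Rgs9. Of the genes with the lowest r, Bmp2k had -0.85, Sfi1 -0.40, Zfp316 -0.30, Ciapin1 -0.19 and Sertm1 0.09. The highest r in residuals were those of Scube1 (0.90), Setd1a (0.88), Nfya (0.88), Lyar (0.88) and Trio (0.88), none of which held an r above 0.19 before. They are the top of a ranking of 9146 genes over 12 libraries, and how high r would rank by chance was not tested.

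Levels of Rgs6 in controls ran closely with the mean of a list of layer 6 markers, and the relation to each single marker was not tested. The 7 markers Tbr1, Tle4, Foxp2, Fezf2, Sla, Hs3st4 and Nfib were averaged as log2 CPM, and 12 relations were computed, each member against this score and against a striatal score. Since both Rgs6 and the layer 6 score separate the genotypes, no pooled r is given for that pair. Within controls r was 0.97 (n = 6, exact permutation p = 0.00694, adjusted p = 0.0417 over 12 relations), with a Spearman rho of 0.83 (exact permutation p = 0.0583). Within mutants r was -0.08 (n = 6, exact permutation p = 0.885), and with litter, sex and genotype removed over all 12 libraries it was 0.51 (permutation p = 0.0936). The score ran from 7.72 to 8.07 in mutants, against 8.21 to 8.74 in controls, and the contrast of r between genotypes was not tested. Without the 2 controls farthest from the median score r was 0.93 over 4 controls (exact permutation p = 0.208). Control 4 had the most Rgs6 and the highest score of all libraries, and control 3 the lowest of both among controls. Single markers differed in this. Among controls Hs3st4, also 1 of the genes most like Rgs6 above, was highest in control 4 (1447 CPM). Foxp2 stood at 495 CPM in control 4 and was highest in control 2 (949 CPM).

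Layer 6 markers summed to 4310 to 6057 CPM in the mutants, against 5221 to 7300 CPM in the controls, with Nfib alone at 2882 to 4375 CPM in the mutants, against 2947 to 4705 CPM in the controls. Of the 7 markers 6 had a negative fold change, 5 were lower at an unadjusted p under 0.05 and 1 (Tle4) was called lower by edgeR. The groups of Tle4, Sla and Hs3st4 did not overlap. Over all tested genes 50.1% were negative, 5.07% were lower at that unadjusted p and 0.159% were called lower. All mutants lay below all controls in 0.927% of tested genes. Subplate markers summed to 322 to 461 CPM in the mutants, against 507 to 1146 CPM in the controls, with no overlap. Most of that sum was Zfpm2, at 226 to 351 CPM in the mutants, against 425 to 989 CPM in the controls, and it was the 1 tested subplate marker whose groups did not overlap. Nr4a2 had a positive fold change (0.46, edgeR adjusted p = 0.849), and Lpar1, Tmem163 and Nxph4 overlapped. Of 5 tested subplate markers 4 were negative, 0 were called by edgeR and 2 were lower at an unadjusted p under 0.05. The part of these markers in the Rgs6 difference was not tested. For Rgs7bp the relation to the layer 6 score within mutants was negative (r = -0.91, exact permutation p = 0.00694, adjusted p = 0.0833, n = 6) and within controls it was 0.03 (exact permutation p = 0.960, n = 6).

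Striatal markers varied widely among libraries of both genotypes. The 13 striatal and ganglionic eminence markers summed to 114 to 1185 CPM in the mutants, against 71.7 to 1071 CPM in the controls. Their 7 tested members all had positive fold changes, with 0 called by edgeR and 0 at an unadjusted p under 0.05. Interneuron markers summed to 315 to 755 CPM in the mutants, against 239 to 717 CPM in the controls. Of 9 tested, 0 were called by edgeR and 1 was higher at an unadjusted p under 0.05, beside 3.71% of all tested genes. Rgs9, the member known from striatum, was not detectably related to the mean log2 CPM of the striatal markers (r = 0.29, permutation p = 0.359, adjusted p = 0.479, rho = 0.44, n = 12 libraries). Gnb5 was lower where striatal markers were higher (r = -0.74, permutation p = 0.00445, adjusted p = 0.0267, and rho = -0.72, adjusted p = 0.0637, n = 12 libraries). That relation was strong within controls (r = -0.94, exact permutation p = 0.00417, adjusted p = 0.0417, n = 6) and not detectable within mutants (r = -0.17, exact permutation p = 0.743, n = 6), a difference that was not itself tested. It was -0.90 in litter 1 (exact permutation p = 0.0181, n = 6) and -0.16 in litter 2 (exact permutation p = 0.758, n = 6), and without the 2 libraries farthest from the median score it was -0.57 and no longer passed (permutation p = 0.0757). With litter, sex and genotype removed it was -0.77 over 12 libraries (permutation p = 0.00314, adjusted p = 0.0377). With the striatal score in the model the log2 fold change of Rgs6 was -1.42 and that of Rgs7bp -0.53.

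**Figure D4:**
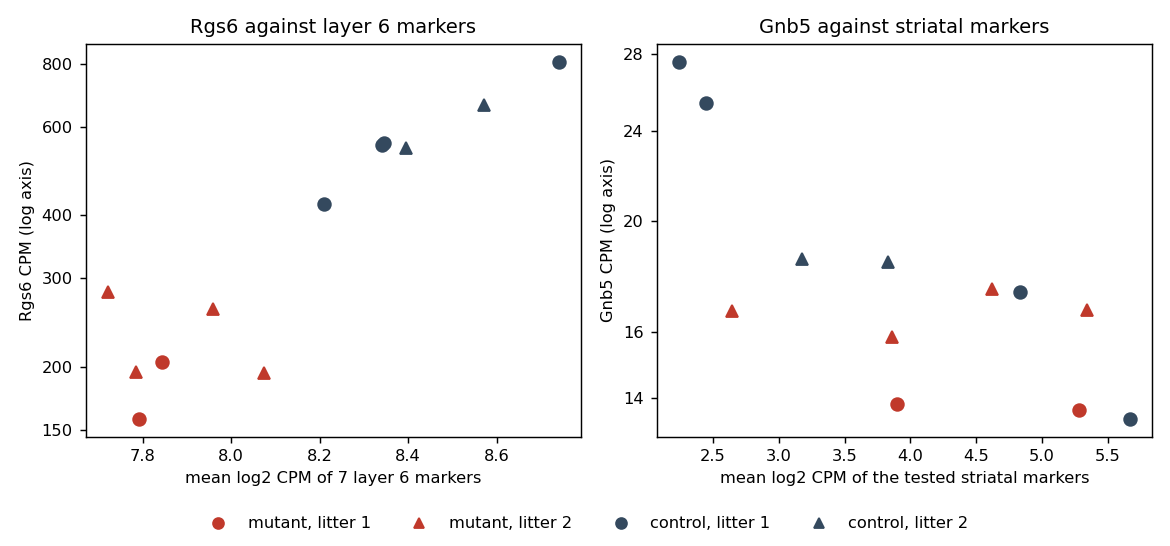
Left, Rgs6 CPM (log axis) against the mean log2 CPM of 7 layer 6 markers; right, Gnb5 CPM (log axis) against the mean log2 CPM of the 7 tested striatal markers. Each point is a library, mutants in red and controls in dark blue, circles litter 1 and triangles litter 2. Within controls r was 0.97 at left and -0.94 at right. Within mutants it was -0.08 and -0.17, and the contrast between genotypes was not tested. At left, controls 1 and 2 lie nearly on top of each other.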

How the data were processed

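Ribosomal RNA-depleted total RNA from embryonic cortex was made into 12 ClickSeq libraries, which use random priming and molecular tags, per the labels' protocols. The deposited files hold raw counts per Ensembl gene, 1 library per file. The submitters' processing notes name build mm10 and, in no stated order, the aligner STAR 2.5.2a, the counter HTSeq 0.6.1p1, cutadapt 1.13, UMI-tools 0.5.3, bcl2fastq 2.17 and edgeR 3.20.9. No source used here gives the annotation release, the counting of introns, strand use or how tags were collapsed. The 5 closing entries that name no gene took 20.7 to 31.6% of a file and were left out. Symbols and coordinates come from GENCODE M21, which matched 51719 of 51912 identifiers. No libraries were copies (chi-square per degree of freedom 1.86 to 15.1 over pairs).

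Genes were kept by filterByExpr (minimum count 10), scaled by TMM and fitted with edgeR 4.0.16 in R 4.3.3 with litter, sex and genotype terms (glmQLFit with robust = TRUE, glmQLFTest, 8 residual degrees of freedom). Adjusted p-values are Benjamini-Hochberg over all tested genes, with a threshold of 0.05. SE is the fold change over the square root of F, and 95% intervals are 1.96 SE to either side. The script was tested on simulated counts. Alternatives were limma-voom (limma 3.58.1), DESeq2 1.42.0, other normalization, filters, covariates, leave-one-out, single litters, females, equal depth and span-trend removal. Correlations used log2 CPM with a prior count of 2 and 100000 permutations, or exact enumeration within groups of 6. The count-based interval and floors of Rgs11 cover counting error only.

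The members and lists were chosen with earlier results of these data known. Named genes were the members, fixed key pathway genes, pathway genes that edgeR called or whose groups did not overlap, the genes nearest to Rgs6 in pattern and its tested neighbours; others are said to be named after their values were seen. The labels do not say whether each library is 1 embryo, so p-values measure the spread between these libraries. Replicate numbers follow accession order. Python 3.11.15, pandas 2.3.3, scipy 1.17.1 and matplotlib 3.10.9 made tables and plots. The marker lists of cortical projection neurons and of retina are not reported here.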

Additional observations from a re-analysis of the deposited data

Results flagged for a closer look

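Gnai1, an alpha subunit gene of the Gi class, stood at 40.2 CPM in mutant 5, apart from the other mutants, with a gap to the next mutant of 0.643 of the group's range. Chance sets a library apart in this way in about 1 of 20 groups, and 28 groups of 6 libraries were examined.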

How the results depend on the processing

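The log2 fold change of Rgs6 stayed between -1.61 and -1.38 over 28 alternatives, and from -1.56 to -1.38 when each library was left out. Rgs7bp kept its negative sign in 28 of 28 (-1.01 to -0.36) and passed in 2. The number of genes called over the whole table, 23, was far less stable: 95 with DESeq2, 261 with no filter, 77 with no sex term, 141 with neither litter nor sex term, 0 by edgeR without the 2 shallowest libraries (mutants 1 and 4, with 700 genes at an unadjusted p under 0.05), 5 in litter 1 alone, 64 in litter 2 alone, 44 in females alone, 7 at equal depth, 35 with the striatal score, and 6 to 55 when each library was left out, lowest without mutant 2 and highest without control 4. The cause was not tested. The interaction count, 0, was 75 with no filter and 0 to 1 when each library was left out.

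Signs turned, in results that did not pass, for Rgs7 (0.33 in litter 2 alone), Rgs9 (-0.11 with no sex term, -0.20 with neither term, -0.0380 without the 2 shallowest libraries), Gabbr2 (0.0456 in litter 2 alone), Gnai1 (0.0815 at equal depth) and Gnai2 (-0.11 in litter 2 alone, -0.0738 at equal depth). They also turned for Gpr158 (-0.0343) and Kcnj6 (-0.21) in litter 1 alone, a fit that with its sex term sets the mutants against control 1 alone. Leaving out a library gave -0.34 to 0.11 for Rgs7, -0.69 to -0.21 for Gnb5, -0.0727 to 0.36 for Rgs9, -0.39 to 0.00405 for Gnai1, -0.0213 to 0.26 for Gnai2, and -0.00104 to 0.49 for the Rgs6 interaction. The relation of Gnb5 to striatal markers was -0.17 within mutants, -0.16 within litter 2 and -0.57 without the 2 farthest libraries, and that of Rgs6 to layer 6 markers was -0.0771 within mutants. Alternatives for the Rgs7 litter difference and for Rgs11 were added after seeing the data; the difference of Rgs11 was -1.31 to -0.75 CPM when each library was left out (exact permutation p 0.00649 to 0.0455). No paired analysis was possible because replicate numbers follow accession order and pair no embryos. Depth limits Rgs11, Rgs9bp, Gpr179 and Kcnj9, and also the levels of Gnb5 and Rgs9 in single libraries.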

Other observations

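Several pathway genes outside the naming rule were picked after their values were seen. Adora1, the adenosine A1 receptor, stood at 5.57, 13.4 and 16.7 CPM in mutants (lowest, median and highest), against 13.3, 33.9 and 38.5 CPM in controls, with a log2 fold change of -0.83 (SE 0.270, edgeR adjusted p = 0.286). Adcy1, a calcium-stimulated adenylyl cyclase, stood at 64.4 ± 21.3 CPM in the mutants, against 122 ± 47.4 CPM in the controls (SD over libraries, n = 6 each), with a log2 fold change of -0.44 (SE 0.157, edgeR adjusted p = 0.354). Among R4 regulators, small RGS proteins with little beyond the catalytic domain, Rgs2 (1.23, SE 0.462), Rgs4 (1.11, SE 0.491) and Rgs5 (0.61, SE 0.255) had positive log2 fold changes and Rgs16 (-0.84, SE 0.336) a negative one, with edgeR adjusted p from 0.386 to 0.516. None of these passed the test. With no count filter, where 261 genes were called against 23 in the main fit, Adora1 (adjusted p = 0.0477) and Adcy1 (0.0432) passed. Adora1 also passed without the litter and sex terms (0.0489).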
